A study of Mus musculus with 4 samples.

Results

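Neurons rich in Nhlh2 RNA were selected on counted RNA from single cells of the developing mouse arcuate nucleus (ARC), by a gate on unique molecular identifiers (UMIs), each of which counts 1 captured RNA molecule. A member had at least 2 UMIs of Nhlh2 and at least 2 of Stmn2, a gene of neurons in general. It also had no UMI of Fezf1 or Nr5a1, which mark the neighboring ventromedial hypothalamus, and fewer than 3 UMIs of Pomc, the precursor of melanocortin peptides. The gate held 927 of the 6351 cells that passed the quality limits, 14.6% of them, and 23.1% (95% interval 21.8 to 24.5%) of the 4006 cells with at least 2 Stmn2 UMIs. The remaining 3079 of those 4006 cells, called the other Stmn2 neurons, were the comparison group.

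All cells came from the ARC of C57BL/6 embryos at age E15 with the genotype Pomc-eGfp, written as E15_5 in the sample titles. In these mice the green fluorescence of Pomc cells guided the dissection, so that a block of tissue and not a sorted cell type was taken. The embryos were pooled, digested with papain and captured on the 10X emulsion platform as a single library, read in 4 sequencing runs, and the files do not say which run or embryo a cell belongs to. There was no treatment and no other genotype, and every comparison below is between cells of this 1 pool. No test of replicates was therefore possible. The 95% intervals are exact binomial or Poisson intervals that cover counting error only, and cells vary by more than that.

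Kisspeptin neurons of the ARC drive the pulsed release of gonadotropin-releasing hormone and so control puberty and fertility. The mature cells carry kisspeptin (Kiss1), neurokinin B (Tac2) and dynorphin (Pdyn), and sense sex steroids through the estrogen receptor alpha (Esr1) and the progesterone receptor (Pgr). Nhlh2 is a basic helix-loop-helix (bHLH) transcription factor whose loss in mice leads to obesity and failed reproduction, and Sox14 is a transcription factor of the Sox family. Nhlh2 is also expressed in young neurons elsewhere in the brain, so the gate was first set against genes of the neighboring regions.

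The members carried 1756 to 13289 UMIs per cell with a median of 3906, and the other Stmn2 neurons had a median of 3229. Because detection rises with depth, shares that matter below are also given after each cell was thinned to 2000 UMIs. Levels are CPM, the UMIs of a gene divided by all UMIs of the group and scaled to 1e6, and a gene is called past 2-fold where the ratio of CPM was at least 2 or at most 0.5, with at least 20 UMIs and a UMI in at least 10% of cells in the higher group. The minimum of 20 UMIs is harder to reach in a small group, so numbers of higher and lower genes are not comparable where group sizes differ much. The gauge of stray RNA was a set of 202 fibroblast and vessel cells (fewer than 2 Stmn2 UMIs and at least 5 of the fibroblast and vessel list), with a median of 3856 UMIs. There, Pou4f1 was found in 4 cells (1.98%), Nkx2-1 in 10 (4.95%), and Sox14 in 3 (1.49%).

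Most members had the RNA profile of dorsal diencephalon rather than of the ARC, and the gate as a whole went against the name kisspeptin lineage. Pou4f1, a POU-domain factor of habenula neurons, was found in 64.1% of members (60.9 to 67.2%) and in 10.9% of the other Stmn2 neurons, 7.87-fold apart in CPM (7.39 to 8.38). After thinning these shares were 54.4% and 8.87%. Gng8, a G-protein subunit of habenula neurons, was found in 60.6% against 13.4% (6.36-fold, 5.96 to 6.8), and the axon guidance receptor Robo3 in 25.5% against 5.13% (4.20-fold). Of the 14 listed habenula and thalamus genes, 11 were abundant enough to compare, and all 11 were past 2-fold higher, with a median log2 ratio of 2.60 beside 0.00251 over all genes. Among all 5265 genes compared, 2.58% were past 2-fold higher and 1.25% past 2-fold lower.

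Of the 15 genes with the largest ratios, 7 were on the habenula and thalamus list. Kitl, the ligand of the receptor Kit, was found in 31.2% of members and 6.46% of the other Stmn2 neurons (7.54-fold, 6.69 to 8.52). The Iroquois homeobox genes Irx1 (6.57-fold), Irx2 (6.07-fold) and Irx5 (5.39-fold) were all higher. So were Tac1, the precursor of substance P, in 27.2% against 6.37% (6.49-fold, 5.73 to 7.36), and Cbln2, a secreted organizer of synapses, in 69.0% against 16.4% (5.85-fold). Further down the order stood Lhx9, a LIM homeobox factor (63.1% against 15.4%), Tcf7l2, an effector of Wnt signaling (80.9% against 41.5%), and the nuclear receptor Nr4a2 (40.5% against 11.1%). The leading 15 also included Fgf15, Sncg, Evc2, Nwd2, Vangl1, Clybl and Nrn1, at 5.16-fold to 6.71-fold.

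ARC genes were correspondingly scarce in the members as a whole. Of 28 listed hypothalamic field and arcuate factors, 12 could be compared, and 10 of them were past 2-fold lower and none higher (median log2 ratio −1.44). Nkx2-1, which marks the ventral hypothalamus, was found in 17.0% of members (14.7 to 19.6%) and in 36.2% of the other Stmn2 neurons. The ARC regulators Otp (4.64% against 23.0%, ratio 0.110) and Isl1 (6.47% against 39.4%, ratio 0.136) were near the bottom of the order. Six3 (17.3% against 48.5%), Six6 (11.8% against 38.9%), and Dlk1, a Notch-related ligand (35.1% against 64.4%), were also past 2-fold lower. The lowest 10 further held Ecel1, Dlx2, Cited1, Cbln4, Brinp3, Tox2 and Camkv, with ratios of 0.129 to 0.242.

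**Figure D1:**
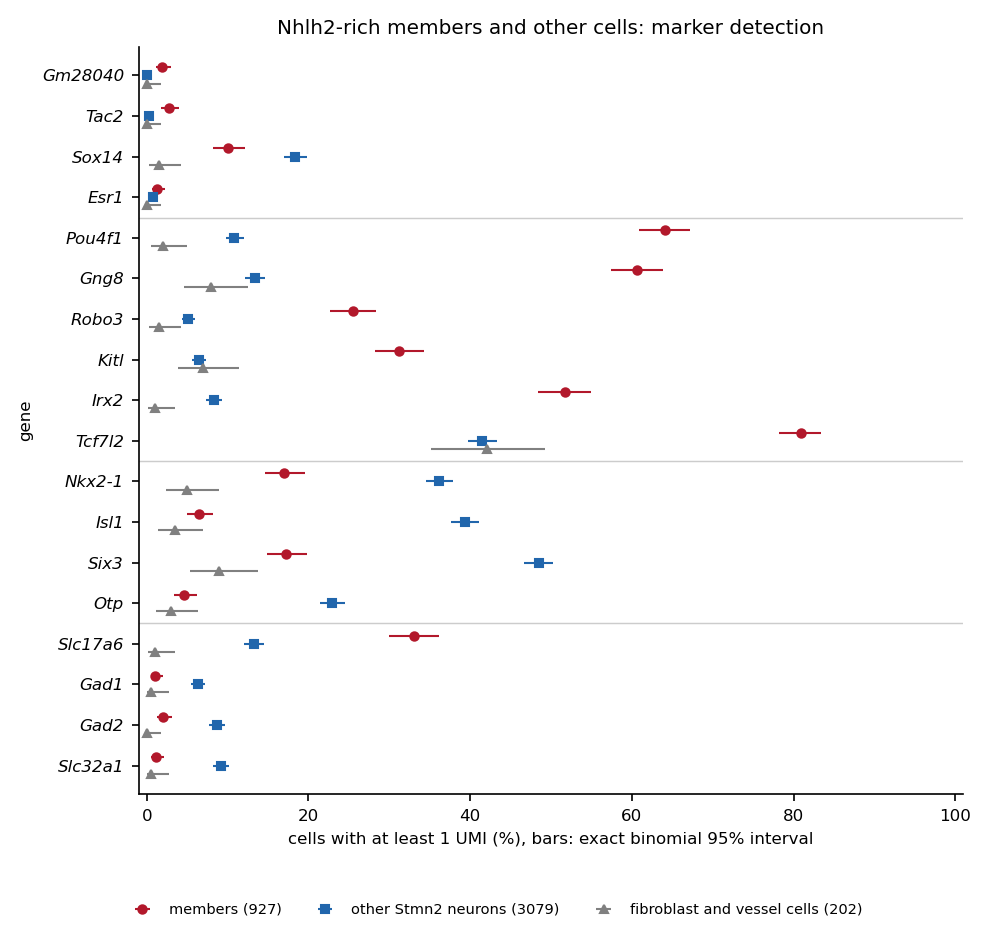
Percent of cells with a UMI (horizontal axis) for 18 genes in the 927 members, the 3079 other Stmn2 neurons and the 202 fibroblast and vessel cells; points are shares and bars their exact 95% binomial intervals. Pou4f1 stands at 64.1% in members and 10.9% in the other neurons, whereas Nkx2-1 (17.0% and 36.2%) and Otp (4.64% and 23.0%) lie in the opposite order.

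Among transmitter genes, that of glutamate release was higher in the members. Slc17a6, the vesicular glutamate transporter of the diencephalon, was found in 33.0% of members and 13.3% of the other Stmn2 neurons (2.31-fold, 2.02 to 2.64). The genes of GABA synthesis and loading were found in under 10% of cells in both groups and so were not called. Gad1 was found in 1.08% against 6.30% (ratio 0.170), Gad2 in 2.05% against 8.67% (0.213), and Slc32a1, the vesicular GABA transporter, in 1.19% against 9.16% (0.153). The peptides of other ARC neurons, also below the minimum for a call, had ratios of 0.0319 for Npy, 0.0617 for Agrp, 0.0570 for Ghrh and 0.0441 for Sst.

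Most genes of neuron maturation were under 2-fold apart. Of 28 genes of neuron maturation, 26 were compared, 3 were past 2-fold higher (the neurofilament gene Nefl, the adhesion gene Cntn2 and the prohormone convertase gene Pcsk2) and 1 lower (Syt4), with a median log2 ratio of 0.05, beside 2.58% of all genes higher and 1.25% lower. Among 10 genes of newborn neurons, 8 were compared and 1, Igfbpl1, was higher, and at least 2 UMIs of the cycling list, which includes the widely expressed Hmgb2, were found in 6.04% of members and 6.53% of the other Stmn2 neurons. Within the bHLH family to which Nhlh2 belongs, Neurod1 was past 2-fold higher (19.4% against 6.27%, 2.80-fold) and 6 further compared members of the family were not. Nhlh1, the closest relative of Nhlh2, had a CPM ratio of 4.42 (2.74 to 7.20) but was too rare to be called. Of the 6 LMO and LIM cofactors, Lmo1 was higher (21.6% against 10.8%, 2.77-fold). Ldb2 was lower, and Lmo3, Lmo4 and Ldb1 were under 2-fold.

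Most genes of the remaining lists were too rare to compare. The counts that follow stand beside 2.58% of all genes past 2-fold higher and 1.25% lower. Of 16 kisspeptin neuron genes, 3 were abundant enough to compare, and Nr4a2 and Slc17a6, both also genes of many other neurons, were higher and Sox14 lower. All 3 compared genes of 13 from the mammillary and posterior hypothalamus (Irx3, Irx5 and Lhx9) were higher, but its defining Foxb1 was found in 3 members and Sim1 in 0 of 927 cells, which allows a share of up to 0.324% (here and below, the share that 3 counts would give). Of 34 hormone and peptide receptors, 7 were compared, with Gabbr1, a GABA-B receptor subunit, higher (67.4% against 44.0%) and the nuclear receptor Rorb lower (5.61% against 10.9%). Tac1 was the only higher gene among 4 compared neuropeptide genes of 32. Of 14 immediate-early genes, which respond to tissue handling, 10 were compared and Junb was lower (11.3% against 20.3%). The ventromedial, cycling and erythroid lists had no call among 1, 2 and 4 compared genes, and of 5 compared progenitor genes Sox2 was lower.

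RNA of pituitary, fibroblast and macrophage genes was low in the members, and the part of other cell types' RNA in the results was not tested. At least 2 UMIs of the pituitary list were found in 8 members (0.863%) and 2.4% of the other Stmn2 neurons, of the fibroblast and vessel list in 1.08% and 1.20%, and of the macrophage list in 2 and 6 cells. Erythroid UMIs were more widespread, at 29.8% of members, 26.6% of the other Stmn2 neurons and 34.7% of fibroblast and vessel cells. At least 2 UMIs of the progenitor list were found in 57.1%, 53.8% and 96.0% of the same groups. No gene of the pituitary, fibroblast or macrophage list was abundant enough in either group for a ratio.

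The members were next divided by region, with classes set after their values had been seen, so that the division is a description. A cell with at least 2 summed UMIs of Pou4f1, Robo3 and Gng8 was put in the habenula class, a cell below that with a Nkx2-1 UMI in the Nkx2-1 class, and the rest in a remaining class. The habenula class held 637 members (68.7%, 65.6 to 71.7%), the Nkx2-1 class 133 (14.3%), and the remaining class 157 (16.9%). Of the other Stmn2 neurons, 335 (10.9%) met the habenula rule. Next to the line, 72 members had exactly 1 and 36 exactly 2 of those UMIs, and 25 cells of the habenula class had a Nkx2-1 UMI. Of all 158 members with Nkx2-1, 91 had at least 2 UMIs of it. Without the habenula-class cells of both groups, 16 of the 25 leading genes were still past 2-fold. Pou4f1 (4.57-fold) and Gng8 (2.43-fold) were among these, but both are genes that set the class, so the removal itself cut their values. The ratios of Tac1 (1.65), Nwd2 (1.63) and Tox2 (0.566) were then under 2-fold, and Fgf15, Sncg, Evc2, Irx5, Vangl1 and Clybl were too rare for a call.

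**Figure D2:**
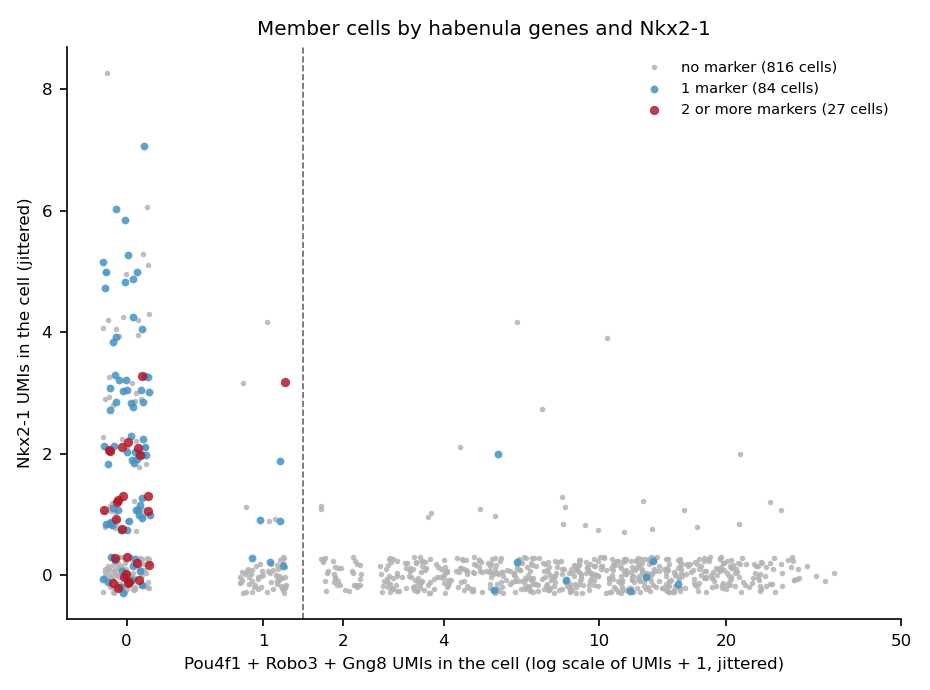
Each point is 1 of the 927 members, with its summed UMIs of Pou4f1, Robo3 and Gng8 on the horizontal axis (log of UMIs + 1) and its Nkx2-1 UMIs on the vertical axis, points jittered so that equal values can be seen; color gives the number of markers found among Gm28040, Tac2, Sox14 and Esr1, with 816 cells at 0, 84 at 1 and 27 at 2 or more. The dashed line is the limit of 2 UMIs, and all 27 cells with 2 or more markers lie to its left.

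The classes differed far beyond the genes that defined them. Zic1, a zinc-finger factor of dorsal brain, was found in 93.7% of the habenula class and 6.77% of the Nkx2-1 class, Lhx9 in 80.1% and 3.01%, Cbln2 in 88.1% and 6.02%, and Tac1 in 37.1% and 3.76%. The Nkx2-1 class held the ventral genes, with Six3 in 63.9% against 7.69%, Tbx3 in 24.8% against 1.26%, Lhx5 in 22.6% against 0.314%, and Prdm12 in 21.8% against 0.157%. Of 5341 genes compared between the classes, 6.83% were past 2-fold higher in the habenula class and 2.57% in the Nkx2-1 class. Slc17a6 was found in 36.6% of the habenula class, 17.3% of the Nkx2-1 class and 31.8% of the remaining class.

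The remaining class lay between the others for most genes named here. Of the genes compared, 5.37% were past 2-fold higher in it than in the Nkx2-1 class and 2.74% lower. Against the habenula class 1.14% were past 2-fold higher in it and 2.48% lower. Its share of Kitl (33.1%) was near that of the habenula class (36.6%) and above that of the Nkx2-1 class (3.01%), and its shares of Irx2 (37.6%), Zic1 (67.5%) and Lhx9 (45.2%) were also high. It had little Nwd2 (8.92% against 62.5% in the habenula class) and little Tac1 (7.01%). Gbx2, a homeobox gene of the thalamus, was found in 9.55% of it, 1.57% of the habenula class and 0 of 133 cells of the Nkx2-1 class, which allows a share of up to 2.26%. The median cell of the 3 classes had 30, 1 and 13 UMIs of the habenula and thalamus list, and 1, 8 and 1 of the field and arcuate list, in the order habenula, Nkx2-1, remaining. These sums partly restate the class rule, because the lists include Pou4f1, Robo3 and Gng8, and Nkx2-1.

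**Figure D3:**
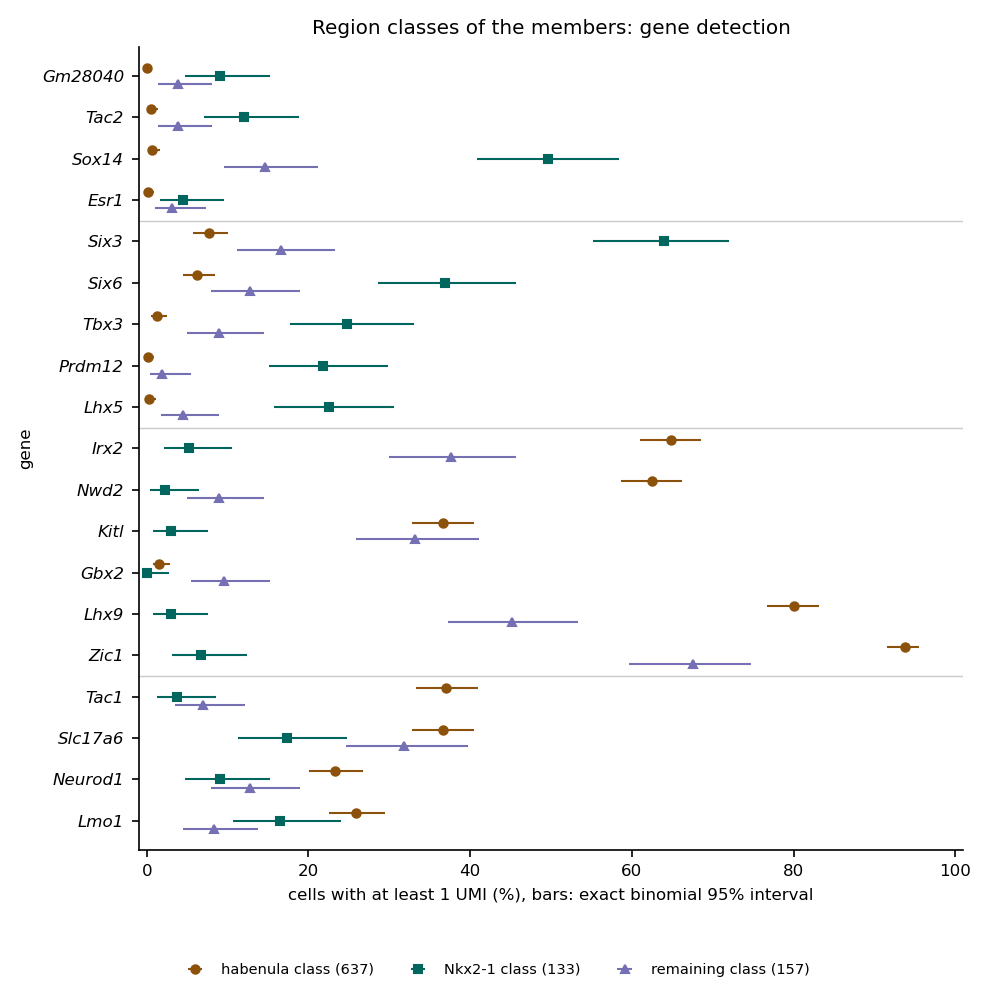
Percent of cells with a UMI (horizontal axis) for 19 genes in the habenula class (637 cells), the Nkx2-1 class (133) and the remaining class (157) of the members; points are shares and bars their exact 95% binomial intervals. Zic1 and Lhx9 are at 93.7% and 80.1% in the habenula class, and Sox14, Tac2 and Gm28040 are at 49.6%, 12% and 9.02% in the Nkx2-1 class.

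The kisspeptin markers fell mostly outside the habenula class. Gm28040 was found in 0 of 637 cells of that class, which allows a share of up to 0.471%, in 9.02% of the Nkx2-1 class and in 3.82% of the remaining class. Tac2 was found in 0.471%, 12% and 3.82% of the 3 classes in the same order, Sox14 in 0.628%, 49.6% and 14.6%, and Esr1 in 0.157%, 4.51% and 3.18%. The median cell had 4012 UMIs in the habenula class, 3359 in the Nkx2-1 class and 3632 in the remaining class.

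Gm28040 overlaps the kisspeptin gene. The row of Kiss1 itself held no UMI in any cell, nor did that of its neighbor Golt1a. In the GENCODE annotation of GRCm38, Gm28040 (chr1:133309827-133329901, plus strand) is a gene model that overlaps Golt1a and spans Kiss1 (chr1:133321875-133329901, plus strand), and all 779 exonic bases of Kiss1 lie inside exons of Gm28040. So do 788 of the 1919 exonic bases of Golt1a. Only 158 of the 1623 exonic bases of Gm28040 lie outside both genes. By position alone, RNA of Gm28040 therefore cannot be told apart from that of Kiss1 or, in its shared exons, of Golt1a. How reads from shared exons were counted, and with which annotation release, is not given in the sources used here. The Gm28040 values below are given under that name.

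The RefSeq start of Kiss1 used here lies downstream of the GENCODE start given above, and within Gm28040. The promoter windows of Kiss1, Tac2 and Sox14 are printed because Gm28040, Tac2 and Sox14 were the markers most often found together. Each runs from 250 bases before the RefSeq start to 50 after it (GRCm38.p6), 5′ to 3′ on the gene's strand. In Kiss1 (chr1:133326962-133327261, plus strand) the capitals are the 52 bases that lie inside a Gm28040 exon. In Tac2 (chr10:127724228-127724527, plus strand) the capitals are CAGCTG, an E-box, the kind of element that bHLH proteins bind. Sox14 lies at chr9:99876121-99876420 on the minus strand and has no capitals.
Kiss1: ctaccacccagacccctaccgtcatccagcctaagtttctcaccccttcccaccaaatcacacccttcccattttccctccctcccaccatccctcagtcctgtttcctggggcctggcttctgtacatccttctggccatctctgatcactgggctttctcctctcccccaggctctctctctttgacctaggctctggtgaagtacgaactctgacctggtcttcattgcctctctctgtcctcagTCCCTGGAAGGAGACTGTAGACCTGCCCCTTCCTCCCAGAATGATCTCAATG
Tac2: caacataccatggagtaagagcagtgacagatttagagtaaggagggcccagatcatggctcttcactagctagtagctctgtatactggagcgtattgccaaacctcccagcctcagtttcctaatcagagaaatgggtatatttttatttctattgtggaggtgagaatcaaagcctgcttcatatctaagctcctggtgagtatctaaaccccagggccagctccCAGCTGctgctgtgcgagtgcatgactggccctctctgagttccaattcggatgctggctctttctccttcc
Sox14: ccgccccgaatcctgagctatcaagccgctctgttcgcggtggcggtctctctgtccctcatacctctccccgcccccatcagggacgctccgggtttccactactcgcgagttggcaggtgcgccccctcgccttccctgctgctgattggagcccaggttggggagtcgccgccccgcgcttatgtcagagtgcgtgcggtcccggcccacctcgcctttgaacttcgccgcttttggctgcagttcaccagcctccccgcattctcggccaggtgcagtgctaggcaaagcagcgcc
The letters CAGCTG read the same on both strands and were found once in the Tac2 window, 22 bases before the start, and not in these windows of Kiss1 and Sox14. They occur in 16.3% of 32851 promoter windows of this length, so a single match is a description only. The RefSeq window of Nhlh2 (chr3:102009895-102010194, plus strand) holds 1 match too, 44 bases after the start. Of the Esr1 windows, 1 holds a match 90 bases before the start and 1 holds none.

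The 4 markers were rare, and Sox14 was the most common of them. Sox14 was found in 93 members (10.0%) with 139 UMIs and at most 4 per cell, and 34 of these cells had at least 2. Tac2 was found in 25 members (2.70%, 1.75 to 3.96%) with 66 UMIs, at most 10 per cell and at least 2 in 13. Gm28040 was found in 18 members (1.94%, 1.16 to 3.05%) with 29 UMIs and at most 4 per cell, and Esr1 in 12 members (1.29%) with 14 UMIs and at most 2. At 2000 UMIs per cell these shares were 6.81% for Sox14, 1.98% for Tac2, 1.32% for Gm28040 and 1.10% for Esr1. Tac2, Gm28040 and Esr1 were found in 0 of 202 fibroblast and vessel cells, which allows a share of up to 1.49%. That limit lies above the share of Esr1 over all members and the thinned share of Gm28040, and within the unthinned interval of Gm28040. In members with Tac2 the share of Esr1 was 28.0% (12.1 to 49.4%) and that of Gm28040 32.0%.

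Gm28040 and Tac2 had higher CPM in the gate than in the other Stmn2 neurons, though both were in under 10% of cells and so below the minimum for a call, and Sox14 was lower. The members held 29 of the 35 Gm28040 UMIs of all kept cells (82.9%) and 66 of the 93 Tac2 UMIs (71.0%). Their CPM was 21.6-fold (7.58 to 84.5) and 8.54-fold (5.24 to 14.4) that of the other Stmn2 neurons, in which Gm28040 was found in 3 cells and Tac2 in 9. Esr1 was found in 1.29% of members and 0.812% of the other Stmn2 neurons (1.60-fold, 0.774 to 3.18), so no difference was detectable at this depth. The members held 14 of its 46 UMIs in all kept cells (30.4%, 17.7 to 45.8%). Sox14 was lower in the members, at 10.0% against 18.4% (ratio 0.392, 0.326 to 0.468), and they held 11.1% of its 1252 UMIs. Among further genes of the kisspeptin list, Pdyn had a ratio of 0.262, Pgr of 0.283, and Tacr3, the receptor of neurokinin B, was seen as 3 and 2 UMIs.

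The same genes were compared within the ventral part of the data. Against the 1114 other Stmn2 neurons with a Nkx2-1 UMI, which include cells left out of the gate for Fezf1, Nr5a1 or Pomc and cells that meet the habenula rule, the Nkx2-1 class of members had Tac2 in 12% of cells against 0.449% (76.8-fold, 32.8 to 220) and Gm28040 in 9.02% against 0.180% (64.0-fold, 19.0 to 336). The number of Gm28040 UMIs was below the minimum for a call. Esr1 was at 4.51% against 1.08% (6.40-fold, 2.27 to 17.0), also below the minimum. Sox14 was at 49.6% against 32.5%, with a ratio of 1.36 (1.09 to 1.68) that stayed under 2-fold.

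Other genes separated the Nhlh2-rich Nkx2-1 cells from the Nkx2-1 neurons outside the gate. Of 5125 genes compared, 0.8% were past 2-fold higher and 2.22% lower. Those highest after Tac2 were Mfap4, an extracellular matrix gene (6.95-fold), Nup62cl (5.35-fold), the neurotrophic factor receptor Gfra1 (5.24-fold), the transcription factor Prdm13 (5.03-fold), and the ethanolamine kinase Etnk2, found in 32.3% against 11% (4.56-fold). Lhx5 (3.93-fold), Rprm (3.67-fold) and Lmo1 (3.28-fold) were also higher. Lower were the cadherins Cdh4 (ratio 0.0739) and Cdh13 (0.167), the adhesion gene Alcam (0.123), Otp (4.51% against 18.4%, 0.228) and Isl1 (16.5% against 48.3%, 0.408). Six3 (1.23), Tbx3 (1.21) and Slc17a6 (1.35, 0.904 to 1.97) were under 2-fold. Of the 13 field and arcuate factors compared here, Prdm12, Lhx5 and Sox1 were higher, Isl1 and Otp lower, and 8 under 2-fold. The precursor gene Insm1 was higher, and Pcsk2 and Fabp7 were lower.

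The markers met in the same cells more often than the product of their shares. At least 1 of the 4 was found in 111 members (12%, 9.95 to 14.2%), and at least 2 in 27 (2.91%, 1.93 to 4.21%). Tac2 and Gm28040 shared 8 cells, where the product of their shares would give 0.485, Tac2 and Sox14 shared 12 (2.51), Sox14 and Gm28040 12 (1.81), and Tac2 and Esr1 7 (0.324). Those products assume that all members are alike, which the classes show they are not. Sox14 was mostly alone, in 72 of its 93 cells, whereas Gm28040 was rarely so, since 17 of its 18 cells had another marker.

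Marker combinations were spread over many small sets. Of the 27 cells with at least 2, 18 had 2 markers, 8 had 3 and 1 had all 4. Sox14 with Gm28040 alone was found in 8 cells, Sox14 with Tac2 in 4, Tac2 with Sox14 and Esr1 in 4, Tac2 with Gm28040 in 3, and those with Sox14 added in 3. The cell with all 4 held 2465 UMIs, among them 5 of Tac2, 1 each of Gm28040, Sox14 and Esr1, and 1 of Pdyn, but none of Nkx2-1 or Pou4f1. By class, the 27 cells were 16 of the Nkx2-1 class and 11 of the remaining class, and the 72 cells with Sox14 alone were 55, 13 and 4 of the Nkx2-1, remaining and habenula classes.

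Members with Tac2 were set against the 902 without it. Etnk2 was found in 72.0% against 7.54% (15.1-fold, 9.67 to 23.0), Ap1s2, a subunit of the AP-1 clathrin adaptor, in 76.0% against 30.3% (10.2-fold, 8.14 to 12.7), and Gadd45g, a growth arrest gene, in 40% against 14.2% (8.92-fold). Sox14 (48.0% against 8.98%, 7.88-fold), the potassium channel gene Kcnk2 (6.39-fold), the granule protein gene Chgb (5.80-fold), Mrps11 (5.71-fold) and Rprm (5.68-fold) completed the leading 8. These Tac2 cells also had Nkx2-1 in 64.0% against 15.7%. Pou4f1 was found in 8% of them and 65.6% of the others. Only 3 of the 25 Tac2 cells were of the habenula class, which held 637 of all 927 members. A difference by Tac2 therefore cannot be told apart from one by region here. Etnk2, for example, was found in 32.3% of the Nkx2-1 class and 3.93% of the habenula class. The same holds for the Sox14, Esr1 and Gm28040 sets, with 4, 1 and 0 cells of the habenula class. Slc17a6 was at a ratio of 0.967 (0.414 to 1.92). Over all 5121 genes compared, 0.898% were past 2-fold higher and 17.4% lower, and many of the lower calls rest on few UMIs because the 25 cells were sampled thinly. The 5 lowest, the first by name among genes with no UMI, were 1700020I14Rik, 1810043G02Rik, 2610301B20Rik, 4932438A13Rik and 5031439G07Rik, with upper bounds of 0.982 to 1.5. Fos, which responds to tissue handling, was also past 2-fold higher in the Tac2 cells (2.54-fold), as was Xist (2.25-fold), and the part of handling or of the mixture of embryos was not tested.

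Members with Sox14 had more RNA of ventral genes than those without it. Nkx2-1 was found in 71.0% of the 93 cells and 11% of the 834 others (8.70-fold, 7.04 to 10.8), and Pou4f1 in 4.30% against 70.7% (ratio 0.0590). Of 28 field and arcuate factors, 10 were compared and 8 were past 2-fold higher (Nkx2-1, Tbx3, Isl1, Six3, Six6, Prdm12, Prox1 and Sox2). All 11 compared genes of the habenula and thalamus list were lower. Prdm13 led the order (17.2% against 0.480%, 54.3-fold, 18.5 to 217), followed by Sox3 (13.2-fold), Nup62cl (12.9-fold), Prdm12 (12.2-fold) and Tac2 (12.9% against 1.56%, 11.9-fold). Lowest were Gphn and Rtn4rl1 with no UMI, then Dmrtb1 (ratio 0.0183), Irx5 (0.0367) and Lhx2 (0.0394). Of 5160 genes compared, 1.78% were past 2-fold higher and 6.8% lower.

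Members with Esr1 were the smallest set, 12 cells. Tac2 was found in 58.3% against 1.97% (70.7-fold, 41.8 to 118), though 1 cell gave 35.7% of those Tac2 UMIs, and Ap1s2 in 91.7% against 30.7% (9.63-fold). Mrps11 (5.66-fold), Ahi1 (4-fold), Rprm (3.88-fold), the proprotein convertase inhibitor gene Pcsk1n (3.36-fold), the immediate-early gene Fos (3.30-fold) and Pou2f2 (3.04-fold) followed. Pou4f1 was found in 0 of the 12 cells, which allows a share of up to 25%. Of 5123 genes compared, 0.312% were past 2-fold higher and 23.6% lower. The 5 lowest, the first by name among many with no UMI in the 12 cells, were 0610007P14Rik, 0610010K14Rik, 1110004E09Rik, 1500011K16Rik and 1810041L15Rik, and the upper bounds of their ratios (1.15 to 3.30) lay above 1.

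Members with Gm28040 shared 8 cells with the Tac2 set, and both were compared with nearly the same remaining members. Ap1s2 was found in all 18 cells and 30.1% of the 909 others (20.9-fold, 17.0 to 25.5), and Etnk2 in 72.2% against 8.03% (15-fold, 9.01 to 24.0). Tac2 was found in 44.4% against 1.87% (47.7-fold, 28.1 to 79.9), though 1 cell gave 37.0% of those Tac2 UMIs. Gadd45g (13.6-fold), Pik3r1, a subunit of phosphoinositide 3-kinase (8.03-fold), Kcnk2 (7.84-fold), Resp18, a gene of secretory granules (6.87-fold), and Rprm (5.70-fold) made up the rest. Sox14 was found in 66.7% against 8.91%, and Tbx3 in 50% against 5.06%. Pou4f1, Tac1 and Lmo1 were found in 0 of the 18 cells (a limit of 16.7%) and in 65.4%, 27.7% and 22.0% of the others. Of 5148 genes compared, 0.66% were past 2-fold higher and 21% lower. Here too the 5 lowest were the first by name among genes with no UMI (0610010K14Rik, 1110038F14Rik, 1810013L24Rik, 1810026J23Rik and 2510009E07Rik), with upper bounds of 0.927 to 2.11. Fos (2.65-fold) and Xist (2.27-fold) were also higher in the Gm28040 cells, and Xist was 2.54-fold higher in the Esr1 cells.

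The 27 cells with at least 2 markers differed from the 72 with Sox14 alone, a split that was also set after the values were seen. Rgs4, a regulator of G-protein signaling, was found in 48.1% against 4.17% (20.4-fold, 6.96 to 81.0), Rprm in 88.9% against 19.4% (10.6-fold, 6.61 to 17.6), Ap1s2 in 96.3% against 43.1% (9.42-fold, 6.89 to 13.1), and Tbx3 in 44.4% against 9.72% (7.44-fold, 3.35 to 17.7). Gadd45g (9.07-fold), the adhesion genes Chl1 (9.05-fold) and Cadm1 (4.69-fold), and Resp18 (4.98-fold) were also higher. Of 2350 genes compared, 1.83% were past 2-fold higher and 10.8% lower. The 27 cells held 82452 UMIs and the 72 held 291911, so the minimum of 20 UMIs limited the higher calls more than the lower ones. The deeper cells were those with Sox14 alone, with a median of 3680 UMIs against 2684, and at 2000 UMIs per cell Ap1s2 remained at 91.7% against 28.2% and Rprm at 75.0% against 11.3%.

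Of 10 field and arcuate factors compared, Six3, Prdm12 and Foxp2 were lower in the 27 cells, Tbx3 was higher, and 6 were under 2-fold. Six3 was found in 62.5% of them and 14.8% of the 27 (ratio 0.118), Lmo4 in 47.2% against 7.41% (0.154), and Prdm12 in 20.8% against 0 of 27 cells, which allows a share of up to 11.1%. Nkx2-1 was shared by both, at 76.4% and 59.3%. Among the genes at 0 in the 27 cells, the first 5 by name, Abhd17a, Ap2a2, Bcl11b, Bola3 and Cgref1, had 20 to 47 UMIs in the 72, and only for Ap2a2 and Bcl11b did the interval lie below 0.5. Slc17a6 did not separate them (14.8% against 25.0%, ratio 1.03, 0.376 to 2.47). Lmo1, Lmo3 and Lmo4, the 3 LMO and LIM cofactors compared, were all lower in the 27 cells. Of these, only Lmo4 had its interval below 0.5 (upper bound 0.469). The upper bounds were 0.948 for Lmo3 (1 against 23 UMIs) and 0.540 for Lmo1 (0 against 26). Those of Foxp2 (2 against 34) and Prdm12 (0 against 26) were 0.812 and 0.540. Of 7 compared immediate-early genes, Fos and Jun were higher and none lower. The part of tissue handling in these differences was not tested.

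Rarer nuclear receptor and peptide genes were also compared across the sets. The nuclear receptor Nr5a2 was found in 22.2%, 2.78% and 0.245% of the cells with at least 2 markers, with Sox14 alone and with no marker, and Pdyn in 11.1%, 2.78% and 1.10%, all from at most 9 cells and too few for a call. Nr4a2 was found in 0 of the 27 cells, 12.5% of those with Sox14 alone and 44.6% of those with no marker. Pgr and the prolactin receptor gene Prlr were found in 0 of the 27 cells, which allows a share of up to 11.1%.

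**Figure D4:**
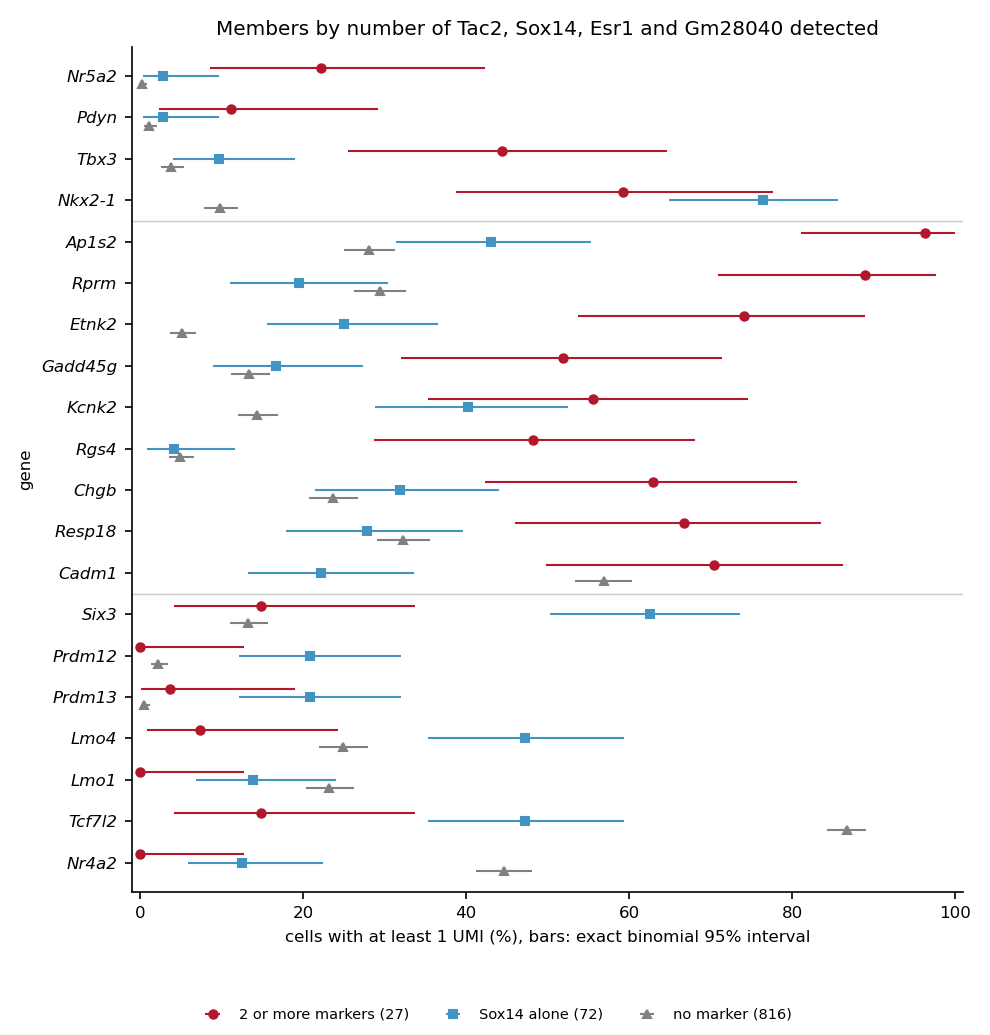
Percent of cells with a UMI (horizontal axis) for 20 genes in members with 2 or more of the 4 markers (27 cells), with Sox14 alone (72) and with no marker (816); points are shares and bars their exact 95% binomial intervals. Rprm stands at 88.9%, 19.4% and 29.4%, and Nr4a2 is at 0 in the first set.

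Cell by cell, the 27 shared some genes and not others. Nhlh2 ranged from 2 to 12 UMIs with a median of 4. Ap1s2 ranged from 0 to 13 UMIs (median 6) and was missing in 1 cell, and Rprm ranged from 0 to 6 (median 2) and was missing in 3. Gm28040 and Tac2 were each found in 17 of the 27 cells, with at most 4 and 10 UMIs, and Sox14 in 21 with at most 3. Pou4f1 was at 0 in all 27.

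**Figure D5:**
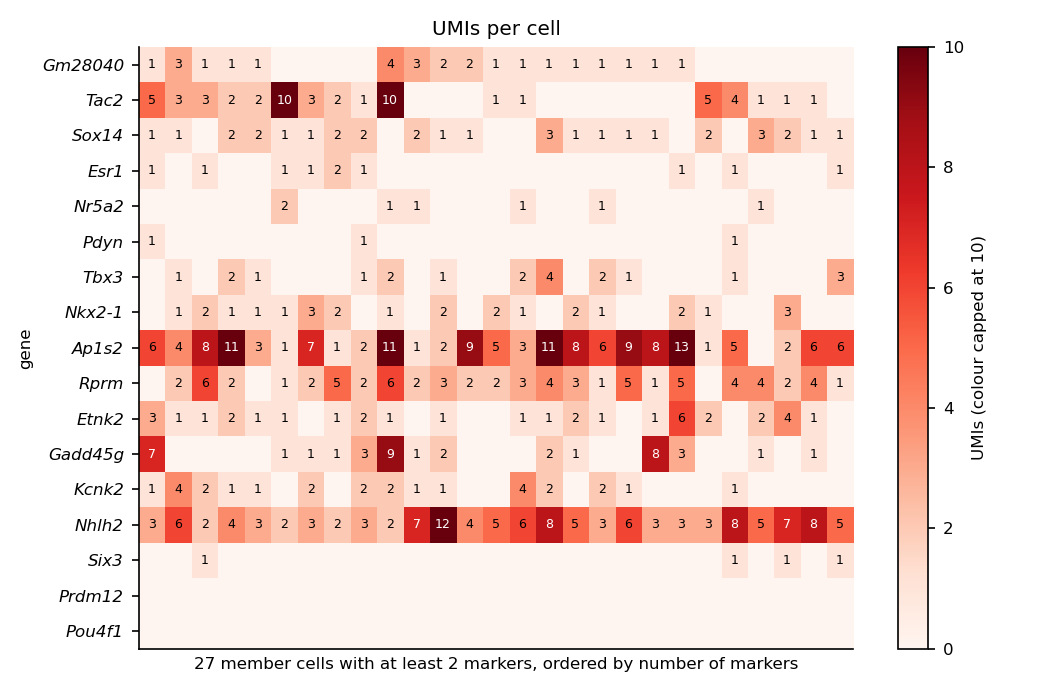
UMIs of 17 genes (rows) in each of the 27 members with 2 or more markers (columns, ordered by number of markers), with color capped at 10 UMIs. Ap1s2 and Rprm fill nearly every column, and the rows of Pou4f1 and Prdm12 are empty.

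The limits of the gate were checked by the cells next to them, as a description of the rule. With exactly 2 Nhlh2 UMIs there were 283 members, of which 8 had Tac2, 2 had Gm28040 and 58.0% had Pou4f1. With exactly 1, just outside, there were 373 cells that met the rest of the rule, of which 3 had Tac2, 2 had Gm28040, 34 (9.12%) had Sox14 and 42.4% had Pou4f1. Among the 356 members with at least 5, 9 had Tac2, 9 had Gm28040 and 68.5% had Pou4f1. The 99 Nhlh2-rich Stmn2 neurons left out for Fezf1 or Nr5a1 had no UMI of Tac2, Esr1 or Gm28040, which allows shares of up to 3.03%, but 56 of them (56.6%) had Sox14. The 61 left out for Pomc had Tac2 in 1 cell, Esr1 in 2, Sox14 in 8 and Gm28040 in 0, which allows a share of up to 4.92%. The nearest neighbors of the remaining limits were 31 cells with exactly 1 Stmn2 UMI against 30 members with exactly 2, and 28 members with 2 Pomc UMIs against 1 cell with 3.

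Other neuron groups of these data crossed the gate. A Robo3 UMI was found in 236 members and a Kitl or Gbx2 UMI in 310.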

How the data were processed

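Cells of the pooled E15 ARC library were captured on the 10X emulsion platform. The deposited matrix held whole-number UMI counts, which the authors made with Cell Ranger 2.1.1 and STAR 2.4.0 on mm10, and Seurat 2.0 is named in the processing notes. The study's methods name the Cell Ranger mm10 reference package, and the release of its annotation is not given in the sources used here. The matrix had 27998 genes, 6465 barcodes, all different, and 26277265 UMIs.

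From these counts, cells with 200 to 4500 genes, at most 10% mitochondrial UMIs and at most 10 Hba-a1 UMIs were kept, which left 6351. No doublet caller was run, and only the limit on genes acts on doublets. Counts were summed over the cells of each group. A limit beside a share of 0 is that of 3 counts of the total. Shares above 0 carry Clopper-Pearson intervals, CPM exact Poisson intervals and ratios of CPM conditional exact binomial intervals. Thinning drew 2000 UMIs per cell and left out shallower cells. Python 3.11.15 with numpy 2.4.6, scipy 1.17.1 and pandas 2.3.3 was used.

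The genes named were the 15 highest and 10 lowest of those past 2-fold between members and other Stmn2 neurons, the 8 highest and 5 lowest of each split (ties in order of name), the members of 20 lists, and the leading genes of the classes. The members and lists were chosen with earlier results of these data known, and the region classes and the split by number of markers after values were seen. Alternatives varied each limit of the gate, the reference, the minimum counts, thinning and the weight of cells. Gene positions are from GENCODE vM21 and promoter windows from RefSeq, both on GRCm38. Of the genes on the lists, 1 is not reported here.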

Additional observations from a re-analysis of the deposited data

How the results depend on the processing

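The 25 genes named from the comparison with other Stmn2 neurons kept direction and stayed past 2-fold under the 11 settings chosen first (275 values), although Pou4f1 ranged from 2.43 to 5.10 on the log2 scale. The gate held 644 to 1300 cells under its alternatives. The share of members with any of the 4 markers (12%) was 14.5% with up to 1 Fezf1 or Nr5a1 UMI, 8.57% at 2000 UMIs per cell and 5.07% where at least 2 UMIs of a gene were asked for. Without the cells with at least 2 UMIs of Pou4f1, Robo3 and Gng8, an alternative added after the data were seen, 290 members were left and the share was 35.5%. The number of genes past 2-fold lower (66) was 37 after thinning, 137 at 10 UMIs and 5% of cells, and 107 against neurons with Nkx2-1. The number higher (136) was 74 without the habenula-class cells of both groups, with 58 genes shared, and 9 of the 25 named genes were then not called. For Tac2, the number higher (46) was 136 at 10 UMIs and 5% of cells, 10 at 50 UMIs, 28 among members with Nkx2-1 and 24 after thinning, and the number lower (893) was 1462 at 10 UMIs and 5% and 470 after thinning. No paired analysis was possible because all cells came from 1 pooled library. Each marker was carried by 12 to 93 members, which limits the precision of its shares and ratios.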

Other observations

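Without the habenula-class cells of both groups, the genes highest in members over other Stmn2 neurons were Irx1 (9.93-fold), Kitl (9.38-fold), Irx2 (8.74-fold), Vav3 (8.20-fold), Ebf1 (6.49-fold), Mfap4 (6.40-fold) and Nrn1 (6.13-fold). The lowest were Dlx1 (ratio 0.0567), Cdh4 (0.106), Ecel1 (0.107), Dlx2 (0.108) and Otp (0.118). This comparison was chosen after the data were seen.

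Cells with Xist RNA and cells with Y-linked RNA were both present in the pool, and their shares differed between groups by more than counting error. Among cells with RNA of Xist or of Y-linked genes but not of both, 19.8% of members (16.9 to 23.0%) had Y-linked RNA, against 8.41% of the other Stmn2 neurons (7.39 to 9.53%). The share was 23.1% in the habenula class (19.3 to 27.3%), 21.4% in the remaining class, 5.26% in the Nkx2-1 class (1.96 to 11.1%), and 0 of 24 among the cells with at least 2 markers. Fibroblast and vessel cells were at 3.31%. Cells with RNA of both kinds were left out of these shares. They were 37 members (3.99%), among them 2 of the 27 cells with at least 2 markers (7.41%). Of the cells with Gm28040, Tac2 and Esr1, 2, 1 and 1 had both. Of members with Tac2, Esr1 and Gm28040, 92.0%, 91.7% and 83.3% had Xist and no Y-linked RNA, against 59.3% of all members. The part of this in the differences between the groups was not tested.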
